A study of Homo sapiens with 17 samples.

Results

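Newly made RNA of 7 receptor-type tyrosine phosphatase genes, PTPRF, PTPRS, PTPRK, PTPRJ, PTPRA, PTPRM and PTPRG, is described here, out of 19867 genes in the count table. They were picked by Ensembl ID (in the same order ENSG00000142949, ENSG00000105426, ENSG00000152894, ENSG00000149177, ENSG00000132670, ENSG00000173482 and ENSG00000144724), in the knowledge that PTPRF was lower with both agents of the study than with their controls. The values of PTPRF against its controls are therefore a description, given with no p-value. The intervals printed for PTPRF come from the same fits as the tests of the other genes and make no allowance for this choice. They describe the spread between libraries and are not to be read as tests, also where effects of the agents are compared. The other 6 genes were added as members of the same family.

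These phosphatases are enzymes of the cell surface that remove phosphate from tyrosines inside the cell, opposing receptor tyrosine kinases or releasing Src-family kinases from their inhibited state. The outer part of many of them resembles cell adhesion molecules and binds neighbouring cells or matrix, so the family stands between adhesion and growth factor signalling. PTPRF, also called LAR, is the founding member of the LAR type. It binds liprin scaffold proteins, sits at cell junctions and adhesions to matrix, and has been tied in rat hepatoma cells to dephosphorylation of the insulin receptor.

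All groups share the cell line SNU-761, which is established from a human liver carcinoma and given as WT, and SLAM-seq was used to count its new RNA. In this assay cells take up thiouridine, and reads with T>C conversions are counted as RNA made while it was present. VT107, a small molecule that inhibits the whole TEAD family, through which YAP and TAZ reach DNA, was set against DMSO in libraries of DMSO, VT107 0.1 µM and VT107 2.15 µM, 2 each. Intetumumab, here a biosimilar antibody to integrins that hold the ITGAV chain, was compared with an isotype IgG1 from human myeloma plasma at 5 µg/ml, in libraries of the isotype, intetumumab 1.5 µg/ml and intetumumab 5 µg/ml, 3 each. All 15 of these libraries were collected after 4 h, and 1 further library per experiment came from cells without thiouridine. All libraries are from 1 cell line, and nothing in the labels says that replicates were separate cultures, so p-values measure the spread between libraries, which may be technical. Labelled libraries held 789214 to 1778876 counts for VT107 and its control, and 435343 to 950281 for intetumumab and its control. The table gives no gene names beyond IDs, so liver markers could not be looked up and the labelled cell type was not checked here.

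PTPRF lies on chromosome 1 (GRCh38.p14, bases 43522051 to 43623666, plus strand), PTPRS on chromosome 19 (5205508 to 5340812, minus strand) and PTPRK on chromosome 6 (127968785 to 128520599, minus strand). PTPRM is on chromosome 18 (7567316 to 8406856, plus strand), PTPRG on chromosome 3 (61561571 to 62297609, plus strand), PTPRJ on chromosome 11 (47980559 to 48170839) and PTPRA on chromosome 20 (2864184 to 3038669, plus strand). These are RefSeq's gene spans, introns included. The 3′ end of PTPRG lies inside the span of PTPRG-AS1 on the opposite strand. Libraries were made from 3′ ends, and whether counting used the strand is not given in the sources used here, so reads of these 2 genes may not have been told apart. For the other members with a listed strand, no other RefSeq gene covers the 3′ end.

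The promoters of PTPRF and PTPRK are shown because these 2 genes had lower values in every VT107 library than in every DMSO library, and VT107 acts on transcription factors that bind DNA. Lower values without overlap were found for 20.6% of all genes tested at 2.15 µM and 19.3% at 0.1 µM. Each promoter is the RefSeq window from 250 bases before to 50 bases after a start site, in the gene's 5′ to 3′ direction. A match to the TEAD core motif GGAATG on either strand is in capitals. The PTPRF window is chr1:43530633-43530932 on the plus strand, inside the RefSeq gene span, and the PTPRK window is chr6:128520550-128520849 on the minus strand.
PTPRF: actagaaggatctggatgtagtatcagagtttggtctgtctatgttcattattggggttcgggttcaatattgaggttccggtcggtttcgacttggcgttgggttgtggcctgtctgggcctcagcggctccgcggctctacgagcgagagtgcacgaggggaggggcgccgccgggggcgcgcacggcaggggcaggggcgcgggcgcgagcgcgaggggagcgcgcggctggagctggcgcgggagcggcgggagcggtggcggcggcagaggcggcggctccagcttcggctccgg
PTPRK: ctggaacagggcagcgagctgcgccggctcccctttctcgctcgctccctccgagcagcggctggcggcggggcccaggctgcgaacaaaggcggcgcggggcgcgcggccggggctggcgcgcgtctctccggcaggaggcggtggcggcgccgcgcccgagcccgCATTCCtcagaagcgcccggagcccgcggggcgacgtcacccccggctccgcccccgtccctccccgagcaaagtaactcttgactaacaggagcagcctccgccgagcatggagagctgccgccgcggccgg

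The PTPRK window held 1 match, CATTCC, which is GGAATG on the other strand and begins 83 bases before the start site. The PTPRF window held 0 matches, which says only that these letters are not in this window. Windows were found for 6 members, with 2 alternative windows for PTPRA and 2 for PTPRM, and 1 of these 8 windows held the motif, against 14.03% of 35116 promoter windows of the same length. The AP-1 motif TGANTCA, searched on both strands and not contained in the first motif, was in 0 of the 8 windows and in 7.71% of all windows. GC content was 68.7% in the PTPRF window and 76.3% in the PTPRK window, against a median of 58.7% over all windows. A match in a window of this length is a description of the letters, not of binding.

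PTPRF gave 2286 and 3546 counts in the DMSO libraries, 863 and 698 at VT107 0.1 µM and 1336 and 1083 at VT107 2.15 µM. Scaled for library size by the TMM method, these were 2453 and 3427 counts per 1000000 (CPM) in DMSO, 1016 and 877 CPM at 0.1 µM, and 723 and 835 CPM at 2.15 µM. All 4 VT107 libraries lay far below both DMSO libraries, and the 2 DMSO libraries differed from each other by more than the VT107 libraries did. Groups of 2 were without overlap for 44.7% of all genes tested at 2.15 µM and for 39.7% at 0.1 µM. In this bulk measurement, fewer cells making the RNA and less new RNA per cell cannot be told apart.

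With VT107 2.15 µM, PTPRF averaged 779 ± 79.4 CPM, against 2940 ± 689 CPM in DMSO (SD, n = 2 each), and its log2 fold change was -1.92 (SE 0.20, 95% interval -2.38 to -1.45), or 3.78-fold lower. At 0.1 µM it averaged 947 ± 98.8 CPM against the same 2940 ± 689 CPM (n = 2 each), with a log2 fold change of -1.63 (SE 0.20, interval -2.09 to -1.18), or 3.11-fold lower. Most of the difference was thus present at the lower dose. The 2.15 µM libraries lay just below those at 0.1 µM, with a log2 difference of -0.28 (SE 0.20, interval -0.73 to 0.17). Between these doses 39.1% of all genes tested were without overlap, and 19% were lower without overlap. Only 0.793% of the 10083 genes tested had a log2 fold change as low as that of PTPRF at 2.15 µM, and 2.05% at 0.1 µM, the gene having been picked for being low. Over all genes, edgeR's quasi-likelihood test called 0.109% at 2.15 µM and 0% at 0.1 µM.

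In the antibody experiment PTPRF gave 634, 655 and 902 counts with the isotype. It gave 466, 481 and 189 counts with 1.5 µg/ml of intetumumab, and 161, 339 and 308 with 5 µg/ml. On the CPM scale the isotype libraries stood at 867, 904 and 974, those with 1.5 µg/ml at 627, 557 and 395, and those with 5 µg/ml at 371, 458 and 394. Every intetumumab library was below every isotype library, while the 2 antibody doses overlapped. Groups of 3 were without overlap for 15.9% of genes at 5 µg/ml and 12.3% at 1.5 µg/ml. The lowest value at 1.5 µg/ml came from a library of 481424 counts and the lowest at 5 µg/ml from a library of 435343 counts, the 2 smallest labelled libraries. Without these libraries the log2 fold changes given next were -0.63 at 1.5 µg/ml and -1.10 at 5 µg/ml. Both stayed below 0, in a gene picked for being lower.

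At 5 µg/ml of intetumumab, PTPRF averaged 408 ± 45.3 CPM, against 915 ± 54.4 CPM with the isotype (SD, n = 3 each), and its log2 fold change was -1.16 (SE 0.17, 95% interval -1.53 to -0.79), or 2.24-fold lower. At 1.5 µg/ml it averaged 526 ± 119 CPM against 915 ± 54.4 CPM (n = 3 each), with a log2 fold change of -0.79 (SE 0.17, interval -1.16 to -0.43), or 1.73-fold lower. Set directly against each other, 5 and 1.5 µg/ml differed by -0.37 on the log2 scale (SE 0.17, interval -0.74 to 0.00039). Among 9024 genes tested, 2.17% had a log2 fold change this low at 5 µg/ml and 3.89% at 1.5 µg/ml. Of all genes, edgeR called 0.0887% at 5 µg/ml and 0% at 1.5 µg/ml.

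**Figure D1:**
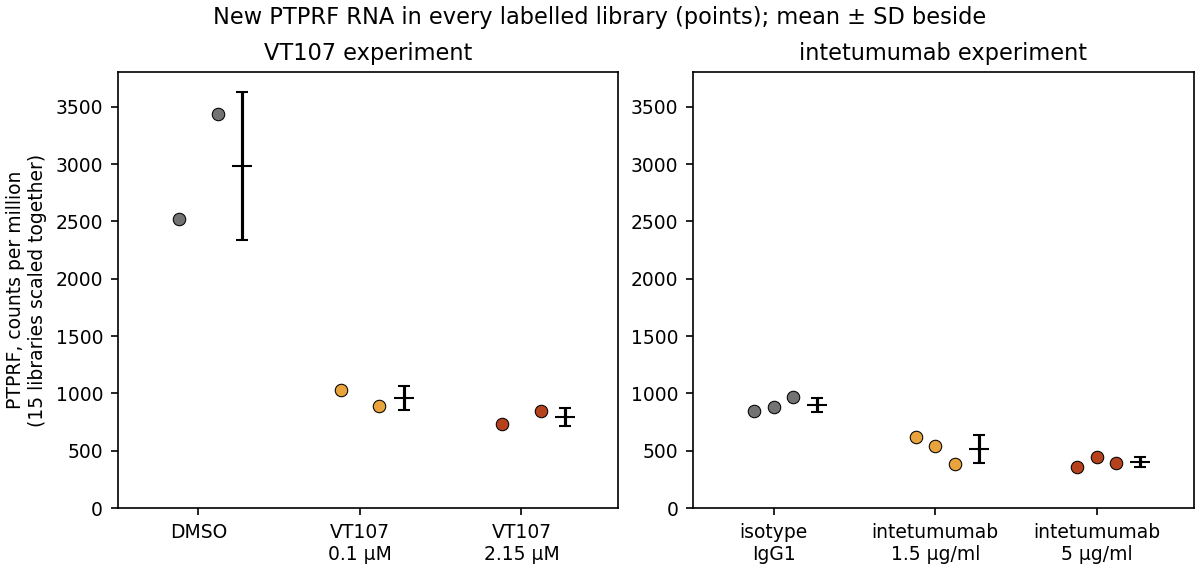
New PTPRF RNA in CPM (y axis, all 15 labelled libraries scaled together) by treatment (x axis). Each point is 1 library and the bar beside it is the mean ± SD. The 2 DMSO libraries, at 2523 and 3440 CPM, stand above all 13 others.

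Scaled together over all 15 libraries, the PTPRF level was lowest at intetumumab 5 µg/ml (400 ± 45.7 CPM), then at 1.5 µg/ml (516 ± 119), VT107 2.15 µM (793 ± 80.5), the isotype (900 ± 59.8), VT107 0.1 µM (959 ± 103) and DMSO (2981 ± 648). Neighbours in this order overlapped except between intetumumab 1.5 µg/ml and VT107 2.15 µM, and between VT107 0.1 µM and DMSO. Levels in the VT107 libraries were thus close to those with the isotype of the other experiment, and the DMSO libraries lay above all others. PTPRF was 3.31-fold higher in DMSO than with the isotype, a ratio at percentile 95.7 of 10227 genes. The 2 controls were handled in separate experiments, so the vehicle and the experiment cannot be told apart, and both VT107 comparisons rest on the same 2 DMSO libraries. The log2 fold change of PTPRF with VT107 2.15 µM minus that with intetumumab 5 µg/ml was -0.75 (SE 0.27, interval -1.31 to -0.18). This difference was -0.98 without DMSO replicate 1 and -0.51 without DMSO replicate 2.

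PTPRS is the other LAR-type member here and binds heparan sulfate and chondroitin sulfate proteoglycans. It had 1 count in each of the 2 VT107 2.15 µM libraries and 0 counts in all 13 other labelled libraries. A count of 0 allows up to 1.43 CPM over the DMSO libraries and up to 1.22 CPM over the isotype libraries, for counting error only. PTPRS was not tested in either experiment, since it did not pass the filter on low counts.

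PTPRK and PTPRM belong to the adhesive type whose outer parts bind the same protein on the next cell, and both are known to act on proteins of cadherin junctions. PTPRK gave 236 and 337 counts in DMSO, 170 and 143 at VT107 0.1 µM, and 311 and 175 at VT107 2.15 µM, from libraries of unequal size. These were 253 and 326 CPM in DMSO, 200 and 180 CPM at 0.1 µM, and 168 and 135 CPM at 2.15 µM. All 4 VT107 libraries lay below both DMSO libraries, and both at 2.15 µM lay below both at 0.1 µM. Such groups of 2 did not overlap for 44.7% of all genes tested at 2.15 µM, 39.7% at 0.1 µM and 39.1% between doses.

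PTPRK averaged 152 ± 23.6 CPM at VT107 2.15 µM, against 289 ± 51.2 CPM in DMSO (SD, n = 2 each), 1.91-fold lower, with a log2 fold change of -0.93 (SE 0.25, 95% interval -1.504 to -0.358, edgeR adjusted p = 0.217, unadjusted p = 0.00548). At 0.1 µM PTPRK averaged 190 ± 14.6 CPM against 289 ± 51.2 CPM in DMSO, with a log2 fold change of -0.61 (SE 0.25, interval -1.18 to -0.03, edgeR adjusted p = 0.393). Neither difference passed the threshold with edgeR. DESeq2, which called 233 genes at 2.15 µM against 11 with edgeR, gave PTPRK an adjusted p of 0.0339 at 2.15 µM and 0.313 at 0.1 µM. Over the 14 alternatives tried at 2.15 µM the adjusted p ranged from 0.0339 to 0.956. Its log2 fold change stood at percentile 7.15 of all genes at 2.15 µM and 16.8 at 0.1 µM.

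In the antibody experiment PTPRK was at 90.2, 156 and 141 CPM with the isotype, 71.3, 115 and 125 CPM at 1.5 µg/ml and 104, 89.3 and 141 CPM at 5 µg/ml. The 3 groups overlapped widely. The log2 fold change was -0.21 at 5 µg/ml (SE 0.29, interval -0.84 to 0.41, edgeR adjusted p = 0.867) and -0.33 at 1.5 µg/ml (SE 0.29, interval -0.95 to 0.30, edgeR adjusted p = 0.974). The higher doses of the 2 agents differed in their effect on PTPRK by -0.71 on the log2 scale (SE 0.41, interval -1.58 to 0.15), which did not pass (edgeR adjusted p = 0.640). The DMSO level of PTPRK was 2.31-fold that of the isotype libraries, a ratio at percentile 90.3 of genes.

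PTPRM was at 45.1 and 20.3 CPM in DMSO, 83.6 and 23.9 CPM at VT107 0.1 µM, and 24.9 and 45.5 CPM at 2.15 µM. The 2 libraries of each group lay far apart, and the groups overlapped. Its log2 fold change was 0.10 at 2.15 µM (SE 0.65, interval -1.39 to 1.60, edgeR adjusted p = 0.969) and 0.73 at 0.1 µM (SE 0.66, interval -0.78 to 2.23, edgeR adjusted p = 0.724). In the antibody experiment it was at 42.4, 73.2 and 35.6 CPM with the isotype, 35.0, 37.1 and 58.5 CPM at 1.5 µg/ml and 57.6, 70.3 and 61.5 CPM at 5 µg/ml. The 5 µg/ml libraries were the most even of these, and their range lay within the range of the isotype libraries. The log2 fold change was 0.34 at 5 µg/ml (SE 0.33, interval -0.37 to 1.05, edgeR adjusted p = 0.791) and -0.23 at 1.5 µg/ml (SE 0.34, interval -0.96 to 0.50, edgeR adjusted p = 0.985).

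PTPRG, whose outer part carries a carbonic anhydrase-like domain that binds contactins, had few counts. The DMSO libraries held 1 and 8, those at VT107 0.1 µM held 11 and 8, and those at 2.15 µM held 24 and 8. This came to 4.40 ± 4.71 CPM in DMSO, 11.5 ± 2.06 at 0.1 µM and 9.58 ± 4.82 at 2.15 µM (SD, n = 2 each). Both libraries at 0.1 µM lay above both DMSO libraries, where 39.7% of all genes tested were without overlap. Relative to library size, only VT107 libraries reached the filter's minimum count of 10 for PTPRG. The gene was thus tested through the groups where it was higher, so its higher values there were partly set by the filter. The log2 fold changes, 1.34 at 0.1 µM (interval -1.05 to 3.73, edgeR adjusted p = 0.667) and 1.09 at 2.15 µM (interval -1.24 to 3.43, edgeR adjusted p = 0.750), did not pass and rested on which DMSO library was kept. Without DMSO replicate 1, which held the single count, they were 0.57 and 0.33, and without DMSO replicate 2 they were 3.29 and 3.05, in the same order. In the antibody experiment PTPRG was at 23.2, 24.9 and 15.1 CPM with the isotype, 13.5, 29.0 and 41.8 CPM at 1.5 µg/ml, and 18.4, 25.7 and 29.5 CPM at 5 µg/ml, and the groups overlapped. Its log2 fold change was 0.25 at 5 µg/ml (interval -0.73 to 1.23, edgeR adjusted p = 0.906) and 0.39 at 1.5 µg/ml (interval -0.59 to 1.37, edgeR adjusted p = 0.985). PTPRG was 4.67-fold higher with the isotype than in DMSO, with a DMSO to isotype ratio at percentile 2.55 of genes. This ratio rests on the DMSO counts of 1 and 8, and vehicle and experiment cannot be told apart in it.

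PTPRJ, also called DEP-1 or CD148, acts on growth factor receptors such as those for PDGF and HGF. Its counts were low, from 8 to 24 a library beside VT107 and from 3 to 16 a library in the antibody experiment, where it did not pass the filter and was not tested. It was at 8.59 and 13.5 CPM in DMSO, 12.96 and 18.8 CPM at VT107 0.1 µM, and 12.99 and 6.17 CPM at 2.15 µM, with all groups overlapping. PTPRJ averaged 9.58 ± 4.82 CPM at VT107 2.15 µM, against 11.1 ± 3.50 CPM in DMSO (SD, n = 2 each), and its log2 fold change of -0.19 had an interval of -1.87 to 1.49 (edgeR adjusted p = 0.947). At 0.1 µM the log2 fold change was 0.51 (interval -1.18 to 2.21, edgeR adjusted p = 0.841). All 3 libraries at intetumumab 1.5 µg/ml, at 12.5 to 18.5 CPM, lay above all 3 isotype libraries, at 4.14 to 9.57 CPM, and above all 3 at 5 µg/ml, at 4.06 to 10.2 CPM. These rest on 33 counts in all at 1.5 µg/ml, 15 at 5 µg/ml and 18 with the isotype. Of genes tested, 12.3% were without overlap between 1.5 µg/ml and the isotype and 10.8% between 5 and 1.5 µg/ml. Those shares describe genes that passed the filter, which PTPRJ did not.

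PTPRA removes the inhibitory phosphate at the tail of Src-family kinases and takes part in integrin signalling. It gave 15 and 27 counts in DMSO, 95 and 30 at VT107 0.1 µM and 65 and 91 at 2.15 µM, or 16.1 and 26.1, 111.9 and 37.7, and 35.2 and 70.2 CPM in the same order. All VT107 libraries were above both DMSO libraries, opposite to PTPRF and PTPRK, and the 2 libraries at 0.1 µM lay far apart. Of all genes tested, 44.7% at 2.15 µM and 39.7% at 0.1 µM were without overlap with DMSO. The counts of PTPRA were multiples of 5 in 12 of 15 labelled libraries, against 20% expected of counts without a pattern.

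PTPRA averaged 52.7 ± 24.8 CPM at VT107 2.15 µM, against 21.1 ± 7.07 CPM in DMSO (SD, n = 2 each), and its log2 fold change was 1.30 (SE 0.61, interval -0.09 to 2.69, edgeR adjusted p = 0.471). At 0.1 µM the log2 fold change was 1.82 (SE 0.62, interval 0.41 to 3.23, edgeR adjusted p = 0.324, unadjusted p = 0.0175). Without replicate 1 at 0.1 µM it was 0.82. Divided by 5 and rounded, a setting chosen after seeing the data, the counts gave log2 fold changes of 1.34 and 1.86 at 2.15 and 0.1 µM (edgeR adjusted p = 0.649 and 0.474).

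In the antibody experiment PTPRA was at 88.9, 124.3 and 48.6 CPM with the isotype, 94.2, 121.6 and 41.8 CPM at 1.5 µg/ml, and 46.1, 39.2 and 83.2 CPM at 5 µg/ml. The groups overlapped. The log2 fold change was -0.61 at 5 µg/ml (SE 0.44, interval -1.55 to 0.34, edgeR adjusted p = 0.713) and 0.02 at 1.5 µg/ml (SE 0.42, interval -0.89 to 0.93, edgeR adjusted p = 0.999). For PTPRA the effects of the 2 agents at their higher doses differed by 1.91 on the log2 scale (SE 0.80, interval 0.21 to 3.61), which did not pass over all genes (edgeR adjusted p = 0.474). PTPRA was 4.00-fold higher with the isotype than in DMSO, with a DMSO to isotype ratio at percentile 2.72 of genes.

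**Figure D2:**
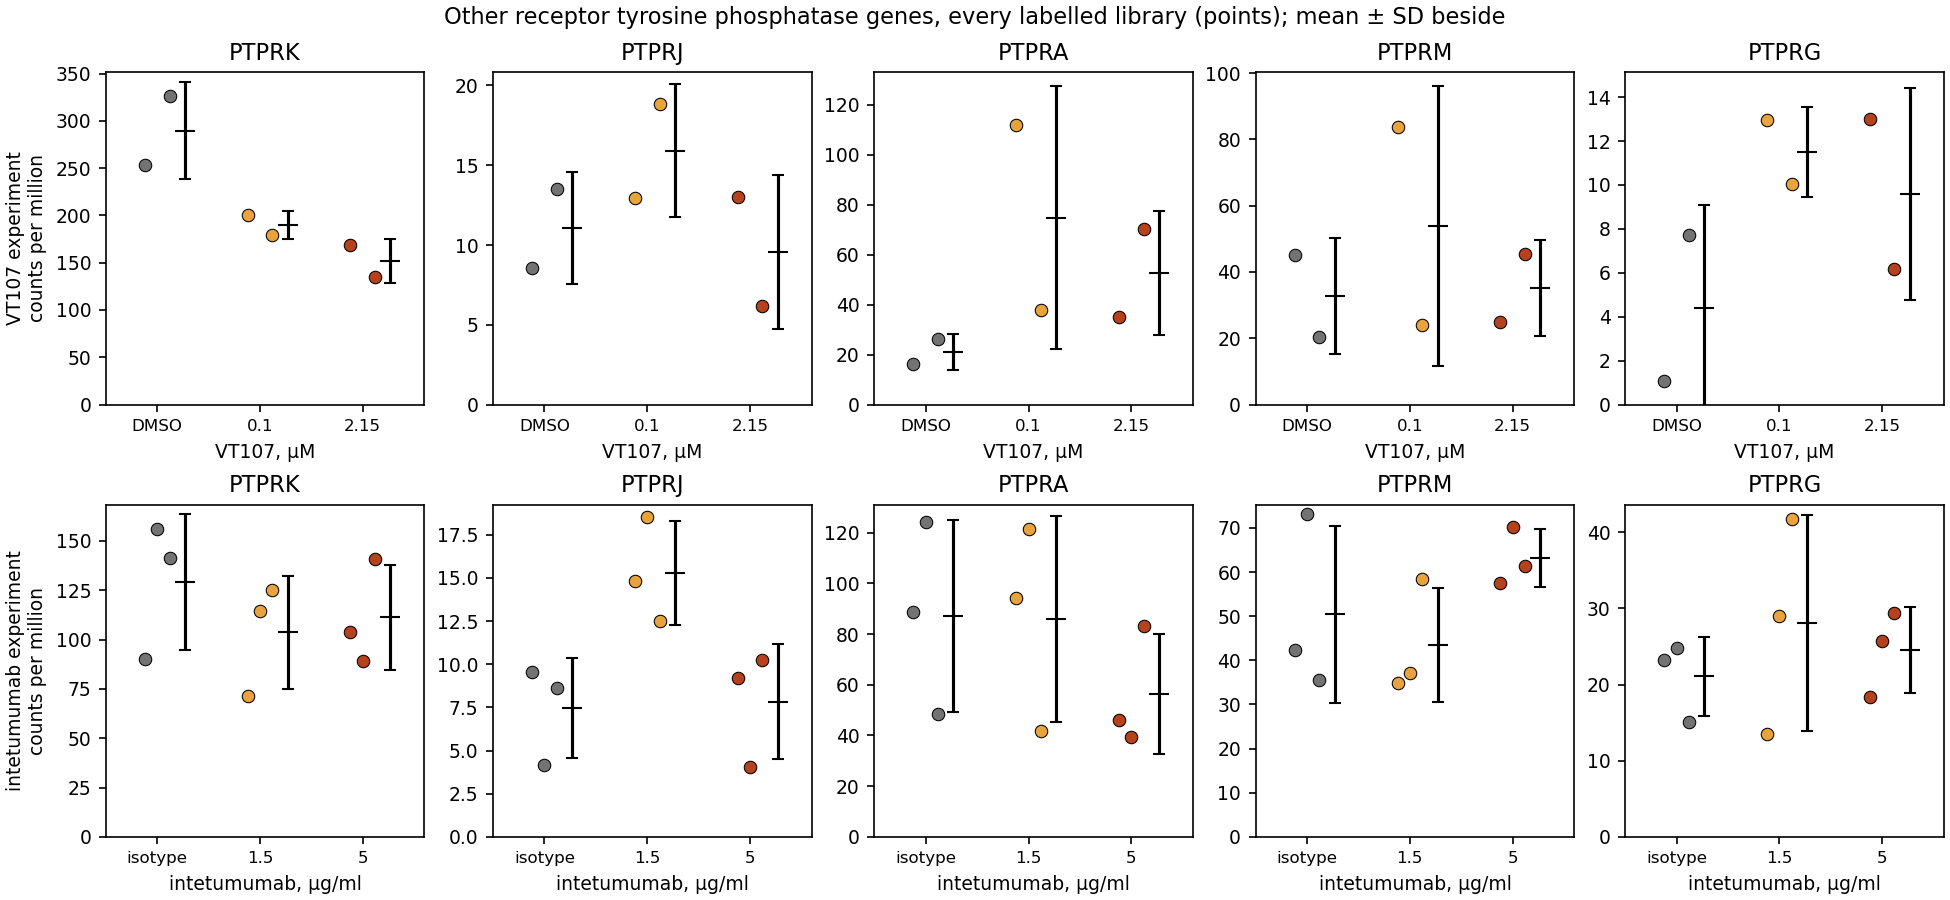
CPM (y axes, each experiment scaled on its own) of 5 genes by dose (x axis), VT107 experiment above and intetumumab experiment below. Each point is 1 library and the bar beside it is the mean ± SD, which for PTPRG in DMSO runs below 0. PTPRK was at 135 to 200 CPM in the VT107 libraries and 253 and 326 CPM in DMSO.

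Among members other than PTPRF, 5 passed the filter beside VT107 (all but PTPRS) and 4 in the antibody experiment (all but PTPRS and PTPRJ). With edgeR, 0 of 5 were called at VT107 2.15 µM and 0 of 5 at 0.1 µM, and 0 of 4 at either intetumumab dose, against the 0.109%, 0%, 0.0887% and 0% of all genes given above. At an unadjusted p under 0.05 there were 1 of 5 at 2.15 µM (PTPRK, lower), against 11.6% of all genes, and 2 of 5 at 0.1 µM (PTPRK, lower, and PTPRA, higher), against 12.1%. At 5 and 1.5 µg/ml there were 0 of 4, against 9.23% and 5.47% of all genes. DESeq2 called 1 member at 2.15 µM (PTPRK), where it called 233 genes, or 6.07% of the 3837 it gave an adjusted p. It called 0 members at 0.1 µM, 5 µg/ml and 1.5 µg/ml, against 4.06%, 3.4% and 2.07% of genes. It gave an adjusted p to only 1 of the 5 at 2.15 µM and 1 at 0.1 µM, to 1 of the 4 at 5 µg/ml and to 0 at 1.5 µg/ml.

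The median log2 fold change of these members was 0.10 at VT107 2.15 µM, 0.73 at 0.1 µM, 0.02 at intetumumab 5 µg/ml and -0.11 at 1.5 µg/ml, where the medians of all genes were 0.03, 0.01, 0.0035 and 0.0081. They were spread on both sides of 0, with 2 lower and 3 higher at 2.15 µM, 1 lower and 4 higher at 0.1 µM, and 2 lower and 2 higher at each antibody dose. Of all genes, 48.3% and 49.3% were lower at 2.15 and 0.1 µM, and 49.6% and 49.1% at 5 and 1.5 µg/ml. PTPRG, higher at both VT107 doses, passed the filter there only through VT107 libraries, so its side of 0 was partly set by the filter. The groups did not overlap for PTPRK and PTPRA at 2.15 µM and for PTPRK, PTPRA and PTPRG at 0.1 µM, against 44.7% and 39.7% of all genes with 2 libraries a group. None of the 4 was without overlap at 5 or 1.5 µg/ml, against 15.9% and 12.3% of all genes. PTPRJ, not tested there, is left out of this count and of the count between antibody doses.

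**Figure D3:**
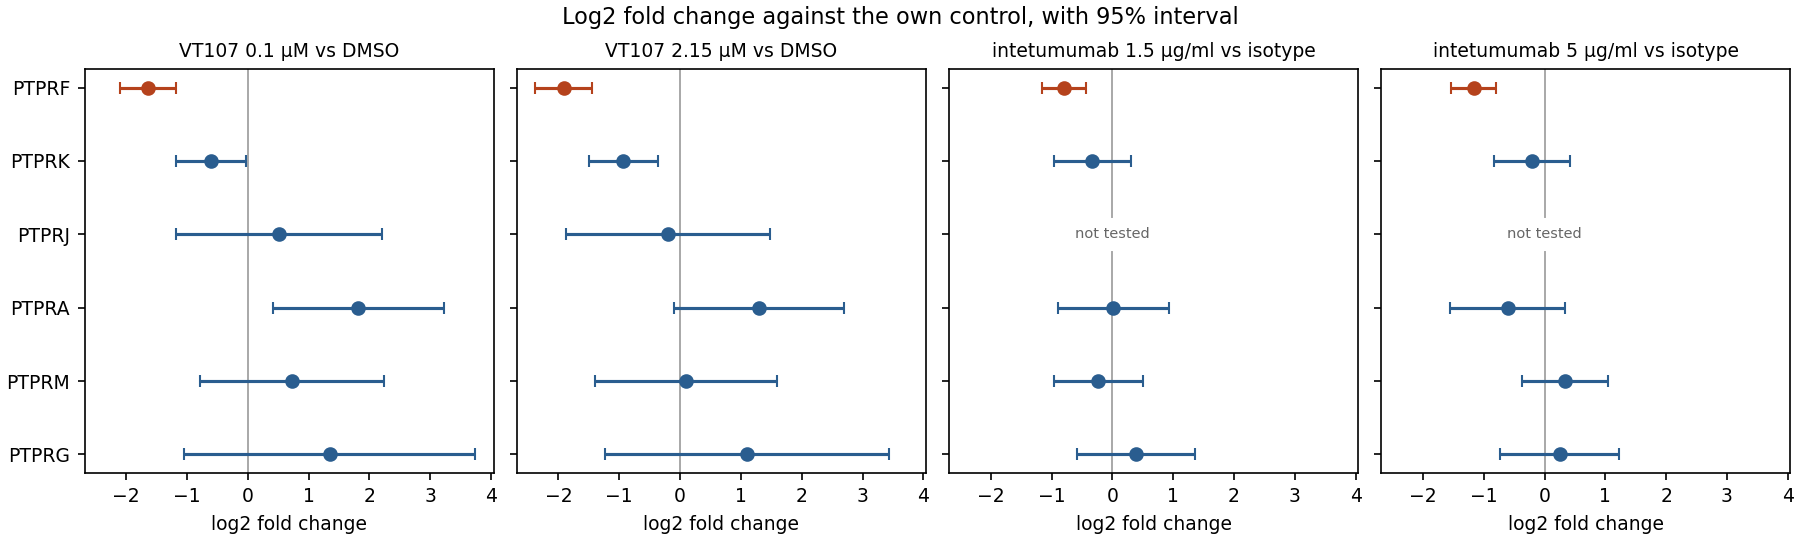
Log2 fold change against the own control (x axis) with its 95% interval from edgeR's fit, for 6 genes (y axis) in 4 comparisons. PTPRF, in red, runs from -0.79 to -1.92, and as it was picked for being lower, its intervals are not tests. The intervals of PTPRJ, PTPRM and PTPRG include 0 wherever they were fitted.

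**Figure D4:**
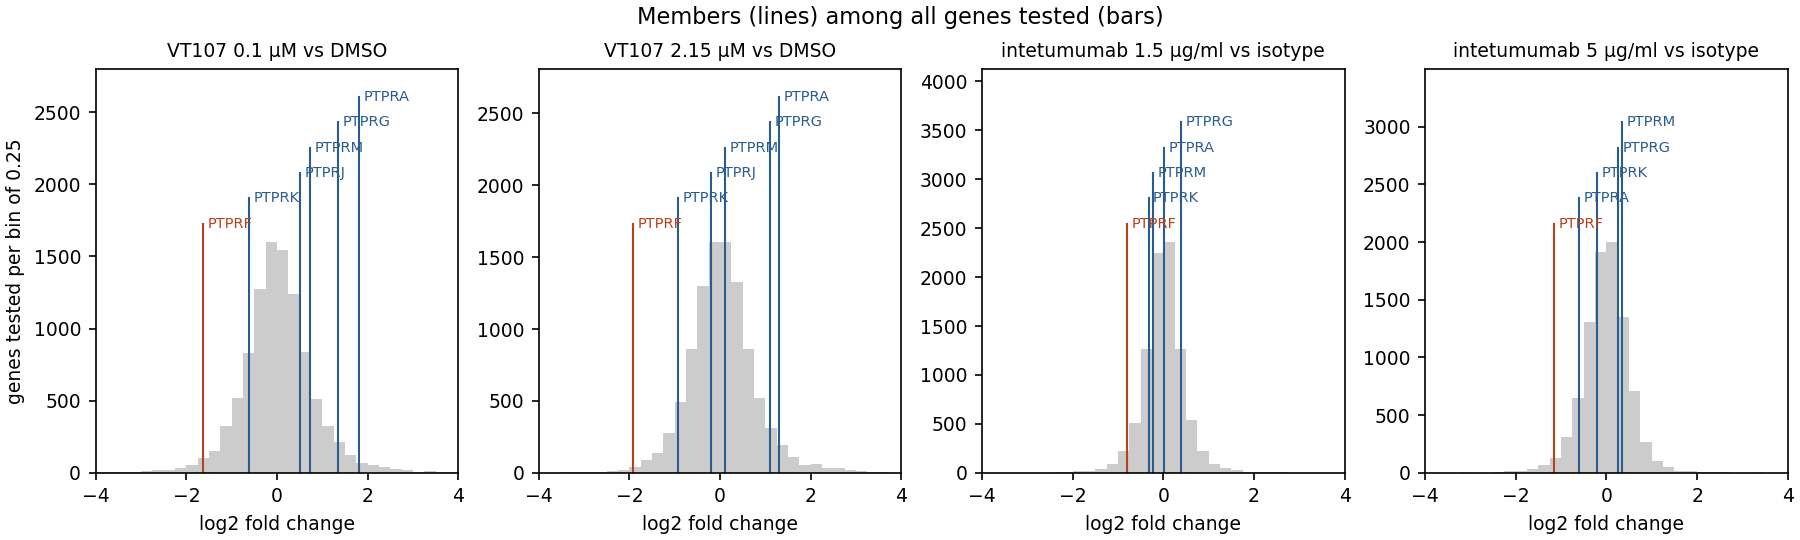
The number of genes tested per bin of log2 fold change (bars, bin width 0.25) in 4 comparisons, with the value of each member as a line. The line of PTPRF, in red, lies in the low tail in each panel, from percentile 0.793 to 3.89, and the other members lie on both sides of 0.

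Between doses, 0 of 5 other members were called for VT107 2.15 against 0.1 µM, as were 0% of all genes, and 0 of 4 for intetumumab 5 against 1.5 µg/ml, against 0.0111% of all genes. At an unadjusted p under 0.05 there were also 0 and 0, against 5.3% and 5.64% of all genes, and DESeq2 called 0 and 0, against 0.0442% and 0.00741% of genes. All 5 had lower values at 2.15 than at 0.1 µM, from -0.25 for PTPRG to -0.71 for PTPRJ on the log2 scale, where the median of all genes was -0.01, 50.8% of genes were lower and every interval included 0. The groups did not overlap for PTPRK there, against 39.1% of genes. Between the antibody doses, 2 were lower and 2 higher at 5 µg/ml, with 50.5% of genes lower, and 0 of 4 were without overlap, against 10.8% of genes. The interaction of agent and treatment (VT107 2.15 µM minus intetumumab 5 µg/ml) was called for 0 of 5 members by edgeR, against 0.0782% of 10227 genes, and by DESeq2 for 0 of the 3 it gave an adjusted p, against 1.49% of genes. At an unadjusted p under 0.05 there was 1 (PTPRA), against 9.06% of genes, and the difference was below 0 for 3 members, with 48.3% of genes.

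Over the 15 labelled libraries, each experiment centred on its own mean, the log2 CPM values of PTPRK followed those of PTPRF with a Pearson's r of 0.57, at rank 562 of 8846 genes. Within the 6 libraries of the VT107 experiment r was 0.93, and within the 9 of the intetumumab experiment it was 0.13. Ranks of r within 1 experiment were not computed. At VT107 2.15 µM, 20.6% of all genes tested were lower than in DMSO without overlap, as PTPRF and PTPRK were. PTPRM and PTPRG had r of -0.27 and -0.53 over all 15 libraries. PTPRA had r of -0.62 within the VT107 experiment and 0.43 within the intetumumab experiment, and -0.21 over all 15 libraries. The pattern most like that of PTPRF was that of ENSG00000146592, with r of 0.965 (0.972 within the VT107 experiment and 0.952 within the other), followed by ENSG00000095752 with r of 0.955 (0.997 and 0.878 in the same order). ENSG00000146592 averaged 473 ± 14.9 CPM at VT107 2.15 µM, against 1074 ± 90.3 CPM in DMSO (SD, n = 2 each), and 497.5 ± 46.0 CPM at intetumumab 5 µg/ml, against 817 ± 37.3 CPM with the isotype (n = 3 each). This gene was ranked most like PTPRF in these same libraries, and PTPRF was picked for being lower with both agents. Its lower values thus follow largely from that choice. The libraries share treatment, depth and scaling, so these correlations describe likeness only.

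In cells without thiouridine, PTPRF had 14 of 10702 counts in the library beside VT107, or 0.856% of its mean labelled count. It had 0 of 4553 counts in the library beside intetumumab, which allows a share of up to 0.0659% of that library. PTPRK had 5 counts in each unlabelled library, or 2.19% and 6.06% of its mean labelled count, and PTPRA had 5 in the VT107 experiment, or 9.29%. That mean is over all labelled libraries of the experiment, and the DMSO libraries held only 15 and 27 PTPRA counts. The other 4 members had 0 counts in both unlabelled libraries. In raw counts, the background of conversions for PTPRF was thus small beside the labelled counts, with 1 unlabelled library an experiment and no replicate check. Total reads sequenced per library were not used, so this assumes libraries of like depth.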

How the data were processed

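The authors deposited raw counts of new transcripts per gene, obtained with SLAM DUNK (series design text). The submitters' processing notes name build GRCh38. Libraries were QuantSeq 3′ libraries, per the labels' protocols. No source used here gives the pipeline's version, its annotation or the conversions needed per read. The table holds 17 libraries and 19867 genes.

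Members and lists were chosen with earlier results of these data known. All 7 members are named. Other phosphatase, partner and kinase lists and cell type markers were not tested, because 0 IDs matched a symbol in the RefSeq table. The 5 genes most like PTPRF were ranked by Pearson's r of log2 CPM (prior count 2), and 2 are named by ID.

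Each experiment was fitted on its own over all labelled libraries, and the difference of effects over all 15. Genes were filtered with filterByExpr (minimum count 10), scaled by TMM and tested with edgeR 4.0.16's quasi-likelihood F-test in R 4.3.3, two-sided, with Benjamini-Hochberg adjustment over all genes tested and calls at an adjusted p under 0.05. The fit was tested on simulated data. Intervals are 95%, and shares and floors (3 counts over the group) cover counting error only. All 12 replicate pairs differed by more than the counting noise of independent reads (chi-square per degree of freedom 3.66 to 8.52). None was therefore taken for 1 library deposited again. Counts that are not independent, as those of PTPRA may not be, would also raise this value. It does not show separate cultures. DESeq2 1.42.0, other scalings, filters and samples, a replicate block and each library left out were alternatives. Promoters came from RefSeq GRCh38.p14, searched with Python 3.11.15.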

Additional observations from a re-analysis of the deposited data

Results flagged for a closer look

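Counts in libraries without thiouridine lie outside the main measurement, and those above the 3 that a count of 0 allows are given here. They were 14 for PTPRF, 5 for PTPRK and 5 for PTPRA in the VT107 experiment, and 5 for PTPRK in the intetumumab experiment. The shares of the unlabelled library were 0.131% for PTPRF (exact 95% interval 0.0715% to 0.219%), 0.0467% for PTPRK (0.0152% to 0.109%) and for PTPRA, and 0.110% for PTPRK in the intetumumab experiment (0.0357% to 0.256%). The mean shares of labelled libraries were 0.150%, 0.0206%, 0.0050% and 0.0113% in the same order. Counts of PTPRA were multiples of 5 in 12 of 15 labelled libraries, so its 5 counts may not be independent, and as 1 read they would not pass the limit of 3.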

How the results depend on the processing

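Members called other than PTPRF numbered 0 in all 7 comparisons and in 107 of 108 alternatives. With few or 0 genes called in the whole table, this says little about stability, and a group left with 1 library was taken to vary like the others. The exception was 1 (PTPRK) with DESeq2 at VT107 2.15 µM, where DESeq2 called 233 genes (6.07% of those with an adjusted p). PTPRF kept its sign under every alternative run, as a gene picked for being lower with both agents in these libraries largely would. Its log2 fold change ranged from -2.13 to -1.66 at 2.15 µM and -1.86 to -1.38 at 0.1 µM. With intetumumab it ranged from -1.26 to -1.10 at 5 µg/ml and -0.94 to -0.63 at 1.5 µg/ml. With total count scaling the median of all genes was 0.18 at 2.15 µM, against 0.03 with TMM, and PTPRF stood at -1.76. The median was then 0.12 at 0.1 µM and 0.14 for the difference of effects.

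Values of the other members with no call turned sign in 23 cases, 22 of them by leaving out 1 library. At 2.15 µM against DMSO the ranges without 1 library were -0.83 to 0.23 for PTPRJ and -0.38 to 0.78 for PTPRM, and at 0.1 µM -0.46 to 1.40 for PTPRM. For 2.15 against 0.1 µM they were -1.09 to 0.49 for PTPRA, -1.25 to 0.57 for PTPRM and -0.88 to 0.18 for PTPRG. At intetumumab 1.5 µg/ml they were -0.32 to 0.36 for PTPRA, which was -0.00050 with DESeq2, and -0.47 to 0.13 for PTPRM. For 5 against 1.5 µg/ml they were -0.10 to 0.26 for PTPRK and -0.48 to 0.22 for PTPRG. For the difference of effects they were -0.87 to 0.19 for PTPRJ and -0.72 to 0.44 for PTPRM. The cause was not tested.

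Genes called over the whole table numbered 11 at 2.15 µM (1 to 26 without 1 library, 233 with DESeq2), 0 at 0.1 µM (177 with DESeq2), 8 at 5 µg/ml (0 to 3, and 103), 0 at 1.5 µg/ml (41 with DESeq2) and 8 for the difference of effects (1 to 25, and 105). Between doses DESeq2 called 6 genes for VT107, against 0. With no filter on low counts 199 genes were called at 2.15 µM, 171 at 0.1 µM, 4 between the VT107 doses, 13 at 5 µg/ml and 42 for the difference. A stricter filter gave 33 at 2.15 µM and 9 at 0.1 µM, and all 15 libraries in 1 fit gave 155, 72 and, at 5 µg/ml, 15. With only the 2 groups compared there was 1 call at 2.15 µM, 1 at 5 µg/ml and 1 at 1.5 µg/ml, and total count scaling gave 5 at 2.15 µM. A replicate block gave 5 at 2.15 µM, 1 at 5 µg/ml and 4 for the difference. Between antibody doses 1 gene was called, with 0 under the block or all 15 libraries and 0 to 2 without 1 library. Same-numbered replicates did not deviate together (r -0.02 to 0.07 in the intetumumab experiment), so numbers were not taken to pair libraries. A replicate block called 0 other members in each comparison and gave PTPRF -1.91 at 2.15 µM and -1.17 at 5 µg/ml. Low counts limit PTPRJ and PTPRG, whose intervals in the VT107 comparisons are the widest among members.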
